A study of Homo sapiens with 121 samples.

Results

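The 54 cells described here belong to the long telomere group of a study of single human embryonic stem cells (hESCs). They are the cells with the longest and the least long telomeres within that group. Each is an untreated cell of the WA26 line, kept undifferentiated in E8 medium on Matrigel, and every group below shares this origin. From each cell the DNA was used for a telomere qPCR and the polyadenylated RNA for a Smart-seq2 library, so that telomere length and transcriptome come from the same cell. Telomere length was expressed as the T/R ratio, the telomere signal divided by the signal of the Alu repeat. Of 121 cells the study placed 81 in the long, 25 in the medium and 15 in the short group. The long cells are numbered by falling T/R ratio: over 80 neighbouring pairs the ratio fell in 68, was tied in 12 and rose in 0. Cells 1 to 27 are called the longest cells, cells 55 to 81 the least long cells, and the 27 cells between them the middle long cells. Cells 27 and 28 were tied, so the lower border of the longest cells is arbitrary by 1 cell, whereas cells 54 and 55 were not tied.

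Telomeres are repeats at chromosome ends that shorten with division unless telomerase, a reverse transcriptase that carries its own RNA template, extends them. Shelterin, a complex of proteins on the repeats, hides the ends from DNA repair and controls access of telomerase; TERF1 binds the double-stranded repeats and TINF2 joins the parts of the complex. hESCs express telomerase and keep long telomeres, cycle fast with a short G1 phase, and rely on the factors POU5F1, SOX2 and NANOG for their identity.

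Values are TPM, transcript levels scaled to a common total per cell, and, for differences, the mean of log2(TPM + 1) in the longest cells minus that in the least long cells. A spread is the SD between cells. The labels name no separate cultures, so cells do not stand for repeated cultures and each group counts as 1 sample: no p-value is given, and whether a difference would return in another culture was not tested. In place of a test, each difference is set beside the SD and beside the percentage of the 729 pairs of cells, 1 from each end, in which the longest cell is the higher. Since 1 is added to each TPM, this scale understates differences of weakly expressed genes. A gene was counted as higher or lower when its difference was at least 1 on the log2 scale. The depth of each library is unknown here, since TPM values do not keep it and the study's text gives only an average number of reads. Genes between TPM 0 and 1 were few in some libraries and many in others. Cell 24 had 6720 genes above TPM 0 and 6716 above TPM 1, whereas cell 1 had 8133 and 5976.

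The 54 cells expressed the marks of undifferentiated hESCs at both ends. POU5F1, the central pluripotency factor, had a TPM of 179.6 at the lowest, 1131 at the median and 1965 at the highest in the longest cells, and 544, 1204 and 1581 in the least long cells. None of the 8 endoderm and 8 mesoderm markers reached an average of 10 TPM over the 54 cells, and SOX17 (endoderm) and T (mesoderm) were above TPM 1 in 0 cells. In each of these lists 2 of the 8 markers were undetected in all 54 cells, and the others were above TPM 1 in at least 1 cell. The summed TPM of the endoderm markers lay between 0 and 39.5 in the longest and between 0 and 82.5 in the least long cells, and that of the mesoderm markers between 0 and 145 and between 0 and 37.9. Of the neuroectoderm markers 2 of 8 (TUBB3 and NES) passed this mean, of the trophoblast markers 1 of 9 (TFAP2C) and of the fibroblast markers 2 of 8 (COL1A2 and VIM). The neuroectoderm sum ranged from 1.21 to 218 and from 24.1 to 237, the trophoblast sum from 0 to 98.7 and from 0 to 95.7, and the fibroblast sum from 0 to 177 and from 0 to 171 (longest and least long cells in each case). Some of these markers were detected in many cells of both ends: TUBB3 was above TPM 1 in 23 longest and 27 least long cells, FN1 in 18 and 22, COL1A2 and VIM each in 15 and 22, KDR in 14 and 17 and KRT7 in 9 and 11. Others were rare, with COL1A1 detected in 4 cells of each end and CDX2 in 1 cell of each. Their part in the differences of other genes was not tested.

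The number of genes detected per cell, counted as genes above TPM 1, differed between the ends. The longest cells held 4002 detected genes at the lowest, 6755 at the median and 11082 at the highest, with a mean of 7547 ± 2321 (SD, 27 cells). The least long cells held 4058, 9165 and 10676, with a mean of 8599 ± 1925 (27 cells). The mean was 1052 genes lower in the longest cells, which is less than either SD, and the longest cell was the higher of the pair in 36.1% of pairs. The middle long cells had a mean of 8743, so the middle long and the least long cells lay close together. Cells 1 to 6, first in the T/R order, all had between 4002 and 5976 detected genes.

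**Figure D1:**
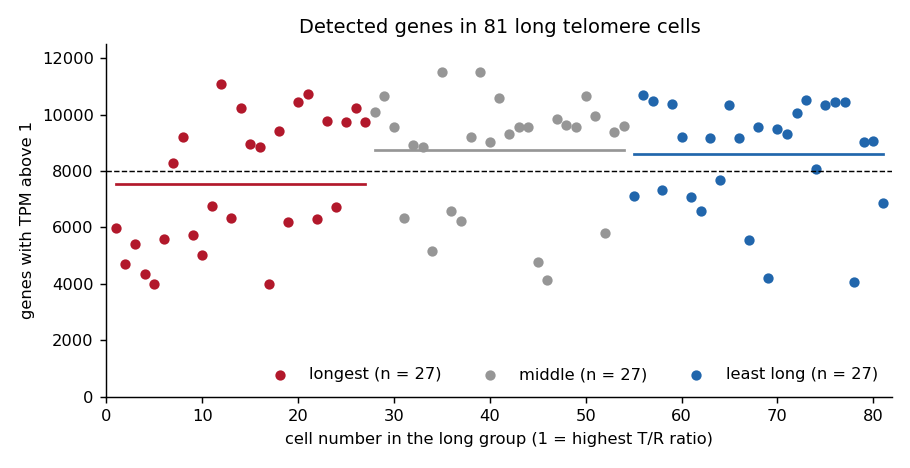
Number of genes with TPM above 1 (y axis) against the cell number in the long group, where cell 1 has the highest T/R ratio (x axis), for 81 cells. Points are cells, solid lines the mean of each set of 27 cells and the dashed line 8000 genes; the first 6 cells all lie below the dashed line, and the mean of the longest cells (7547) lies below those of the middle (8743) and the least long cells (8599).

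No cell of the 54 lay between 7686 and 8064 detected genes. A wider gap lay between 8286 and 8857, so the border used here is a choice and not a natural break. With a border at 8000 genes, 13 of the 27 longest cells were gene-rich (48.1%, exact binomial 95% interval 28.7 to 68.1%) against 18 of the 27 least long cells (66.7%, 46.0 to 83.5%). These intervals cover counting error only, and they overlap. The gene-rich cells of both ends held nearly equal numbers of genes, 9742 ± 796 in the longest and 9759 ± 734 in the least long, whereas the gene-poor cells held 5510 ± 951 (14 cells) and 6280 ± 1350 (9 cells). Over all 81 long cells Spearman's rho of detected genes with rising T/R order was -0.23. Over the 51 gene-rich cells it was 0.002 and over the 30 gene-poor cells -0.31. These are descriptions across cells whose cultures the labels do not name. The list medians and most single genes below are therefore given for all 54 cells and for the gene-rich cells alone. Whether telomere length or the quality of the library set the number of detected genes was not tested.

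Over 6215 genes whose TPM averaged at least 10 in the 54 cells, the longest cells had lower values for most. The difference was below 0 for 4823 genes and above 0 for 1392, with a median of -0.39. By the threshold of 1, 837 genes were lower (13.5%) and 30 were higher (0.483%). Among the gene-rich cells the picture was even: 3074 genes were below 0 and 3137 above it, the median was 0.004, 127 genes were lower (2.04%) and 103 were higher (1.66%). The gene-poor cells had the widest spread, with 1776 genes lower (28.6%), 444 higher (7.14%) and a median of -0.44. A linear fit of each gene on group and detected genes left 219 lower and 99 higher, with a median of -0.08.

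**Figure D2:**
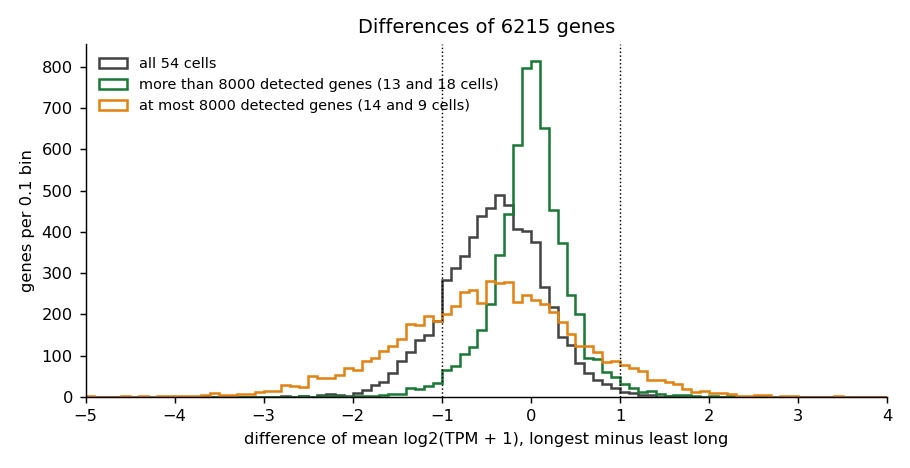
Histogram of the difference of mean log2(TPM + 1), longest minus least long cells (x axis), for 6215 genes in bins of 0.1 (y axis, genes per bin), over all 54 cells, the gene-rich cells and the gene-poor cells. Dotted lines mark differences of 1 and -1; the curve of all cells is centred at -0.39, that of the gene-rich cells at 0.004.

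In the linear fit 825 of the 837 lower genes (98.6%) had a positive slope on the number of detected genes, beside 5562 of all 6215 genes (89.5%). Among gene-rich cells 629 of the 837 were still below 0, but 81 were lower by at least 1. Of the 30 higher genes 29 were above 0 among the gene-rich cells, 11 of them by at least 1, and 30 were above 0 among the gene-poor cells. The middle long cells lay between both ends for 556 of the 837 and for 21 of the 30. A lower level of a gene in the cell and a poorer capture of its RNA cannot be told apart in these values.

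TERF1 had the highest share of pairs in favour of the longest cells. Its TPM was 366 at the lowest, 852 at the median and 2276 at the highest in the longest cells, and 341, 576 and 949 in the least long cells. All 54 cells expressed it; the ranges overlapped, but 10 of the longest cells lay above the highest least long cell and 21 above the median of the least long cells. On the log2 scale the level was 9.71 ± 0.69 against 9.09 ± 0.44, a difference of 0.62, and the longest cell was the higher in 76.8% of pairs, place 1 of 6215 genes. The rank correlation with rising T/R order over the 81 long cells was 0.46, also place 1 of 6215. The mean level then stepped down through the middle long (9.21), the medium (8.69) and the short cells (7.42). TERF1 is among the genes that the study selected for a positive relation with the T/R ratio on these same cells, so that its place is not independent evidence.

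TERF1 was also higher in cells with fewer detected genes, with a slope of -0.15 per 1000 detected genes on the log2 scale. Gene-poor cells made up 14 of the 27 longest and 9 of the 27 least long cells. Within the gene-rich cells the TPM was 392 at the lowest, 718 at the median and 1082 at the highest in the 13 longest cells, and 341, 502 and 832 in the 18 least long cells. The difference was 0.39 there, with SDs of 0.48 and 0.38, the longest cell was the higher in 74.4% of pairs, and TERF1 took place 52 by pairs and place 877 by size of the difference. At equal numbers of detected genes, by the linear fit, the difference was 0.46. It stayed above 0 under 13 of 13 alternative ways of choosing cells and scaling values, between 0.39 and 0.79.

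Of the other members of shelterin, TINF2, TERF2IP and ACD passed the mean of 10 TPM, and POT1, which binds the single-stranded overhang, and TERF2, which holds the protective loop, did not. TINF2 was detected in 18 longest and 17 least long cells and differed by 0.61 (SDs of 2.58 and 2.22) and among gene-rich cells by 0.97. ACD, the partner of POT1 that recruits telomerase, differed by 0.57 and among gene-rich cells by 0.55. TERF2IP, the partner of TERF2, differed by -0.72, with 15 longest against 20 least long cells in which it was detected, and among gene-rich cells by -0.16. The median of the 4 members past the mean was 0.59 over all cells and 0.47 among gene-rich cells, with 3 of 4 above 0 in each. The medians over all genes were -0.39 and 0.004. Below that mean, TERF2 differed by -0.16 and POT1 by -0.19 over all cells, and by -0.60 and 0.41 among gene-rich cells. The mean log2 level of all 6 members per cell differed by 0.12, with the longest cell the higher in 54.0% of pairs. Among gene-rich cells this mean differed by 0.26 with 67.9% of pairs. No member reached a difference of 1, and for TINF2, TERF2IP and ACD the SD between cells was larger than the difference.

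Telomerase itself was near the limit of detection. TERT, its catalytic subunit, was above TPM 1 in 2 longest and 5 least long cells, and TERC, its RNA, which carries no poly(A) tail in its mature form, in 4 and 3. Of 14 listed subunits and assembly factors 11 passed the mean, with a median difference of -0.49 over all and -0.08 among gene-rich cells. GAR1, a protein of the dyskerin complex, differed by -1.37, and RUVBL1, an ATPase of assembly, by -1.32. Among gene-rich cells these were -0.51 and -0.01. NAF1, an early assembly factor of the complex, differed by -0.67 over all and by 1.02 among gene-rich cells, the member past the threshold there. NOP10 and NHP2, abundant members of the same complex, differed by 0.04 and -0.03 over all cells and by -0.16 and -0.33 among gene-rich cells. DKC1, the dyskerin pseudouridine synthase, had a median TPM of 72.0 in the longest and 59.5 in the least long cells and a difference of -0.30, which was 0.15 among gene-rich cells.

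The lists of other genes of telomere upkeep had medians below 0 over all cells and close to 0 among gene-rich cells. Mismatch repair genes had a median of -0.63 over all cells and 0.06 among gene-rich cells (6 of 8 past the mean). EXO1, its exonuclease, differed by -1.14 over all cells and by 0.55 among gene-rich cells, and PMS1 by -1.24 and 0.08. MSH6, which recognises mismatched bases, differed by 0.29 and -0.03. The Ku and end joining genes had medians of -0.31 and -0.00, and those of homologous recombination and checkpoint -0.28 and 0.09. None of 6 and none of 11 passed the threshold in either set of cells. Of all genes, 13.5% were lower and 0.483% higher by at least 1 over all cells, and 2.04% and 1.66% among gene-rich cells. Counts of 0 in lists this short therefore say little. The list of CST and telomere replication genes had 7 members past the mean, with medians of -0.56 and 0.07.

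**Figure D3:**
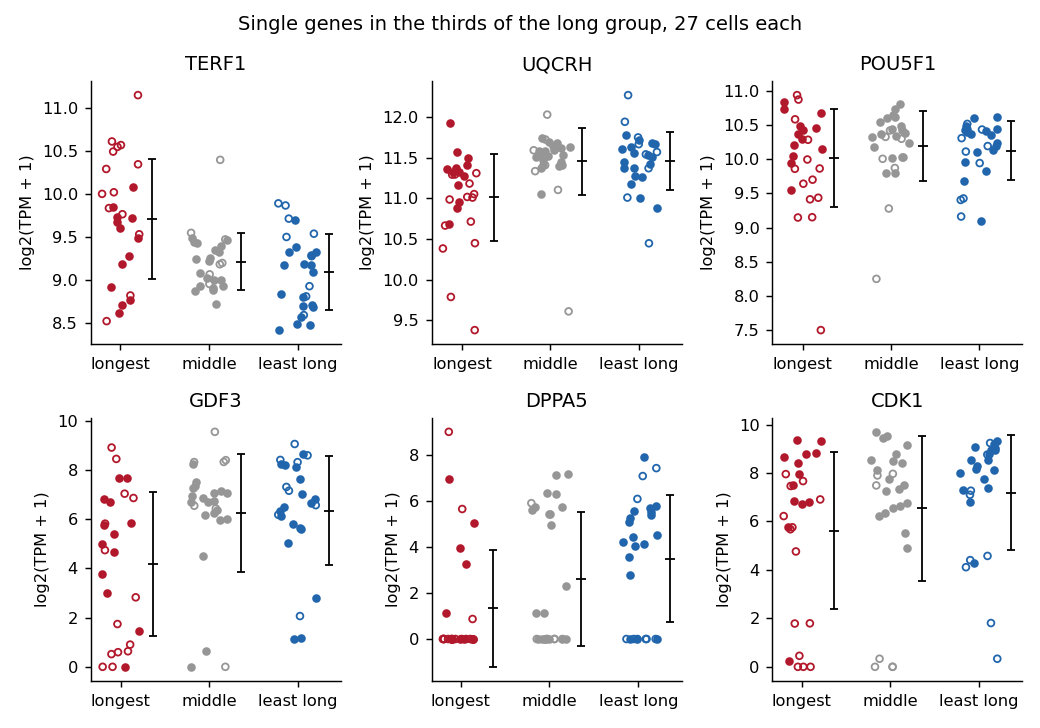
log2(TPM + 1) of TERF1, UQCRH, POU5F1, GDF3, DPPA5 and CDK1 (y axes, each on its own scale) in the longest, middle and least long cells, 27 cells each. Filled points are gene-rich and open points gene-poor cells; bars to the right are the mean ± SD. TERF1 is higher in the longest cells (9.71 against 9.09), POU5F1 differs little (10.02 against 10.12), and DPPA5 is at 0 in most of the longest cells.

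The core of the pluripotency network differed little. All 14 listed genes passed the mean, and their median difference was -0.10 over all cells and -0.01 among gene-rich cells. Over all cells 1 of 14 was lower by at least 1, beside 13.5% of all genes. POU5F1 differed by -0.10 (10.02 ± 0.72 against 10.12 ± 0.43), NANOG by -0.13 and SOX2 by 0.02, with the longest cell the higher in 48.1%, 49.2% and 50.1% of pairs. Among gene-rich cells these differences were 0.11, -0.05 and -0.18. LIN28A, an RNA-binding protein that blocks let-7, differed by -0.03 over all and by 0.19 among gene-rich cells, and DPPA4 by 0.003 and 0.006. PRDM14, a repressor of differentiation genes, had the highest value of the list at 0.40, with SDs of 2.22 and 1.90, and differed by 0.26 among gene-rich cells. In PluriNet, a published network of pluripotency genes of which 256 passed the mean, the median was -0.35 over all cells, with 29 lower by at least 1 (11.3%, beside 13.5% of all genes), and -0.01 among gene-rich cells, with 1 lower and 2 higher.

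GDF3, a TGF-beta family ligand of pluripotent cells, was the exception in that list. Its TPM was 0 at the lowest, 25.8 at the median and 482 at the highest in the longest cells, and 1.22, 100.2 and 533 in the least long cells. It was detected in 20 of 27 against 27 of 27 cells, and the difference was -2.17 (4.18 ± 2.93 against 6.34 ± 2.22) with the longest cell the higher in 27.8% of pairs. Among gene-rich cells the difference was -1.07 with 35.0% of pairs, and among gene-poor cells -3.57. The middle long cells (6.27) lay with the least long ones.

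DPPA5, an RNA-binding protein associated with the naive state, was the lowest of the 6215 genes among gene-rich cells. It was above TPM 1 in 7 of 27 longest cells (25.9%, exact 95% interval 11.1 to 46.3%) and in 18 of 27 least long cells (66.7%, 46.0 to 83.5%). The median TPMs were 0 and 17.5. The intervals cover counting error over cells only, while each group counts as 1 sample. DPPA5 took the lowest place in this same comparison, so its intervals are not independent evidence of a difference. Among gene-rich cells it was detected in 5 of 13 longest, 13 of 20 middle long and 15 of 18 least long cells. The difference was -2.17 over all cells, -2.54 among gene-rich and -1.18 among gene-poor cells, and the longest cell was the higher in 21.8% of gene-rich pairs. Of the other naive-associated genes DPPA2 differed by -0.44 over all and by 0.83 among gene-rich cells, DPPA3 by 0.11 and 0.18, and 8 of the 11 did not pass the mean. Both ends held cells with and cells without DPPA5.

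The cell cycle lists went apart among gene-rich cells. Over all cells the mitosis genes had a median of -0.87, with 29 of 30 below 0 and 9 lower by at least 1, against 13.5% of all genes. The lowest were CCNA2, the cyclin of S and G2 phase, at -1.58, and CDK1, the kinase that starts mitosis, at -1.57. CDK1 had a TPM of 0 at the lowest, 109 at the median and 665 at the highest in the longest cells and 0.26, 278 and 631 in the least long cells. AURKB, CCNB2 and CENPA followed at -1.48, -1.47 and -1.34, and PLK1, a kinase of mitotic entry and exit, was at -0.69. MELK, a kinase that the study selected on these cells, was at 0.66.

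Among gene-rich cells 27 of the 30 mitosis genes remained below 0, beside 3074 of all 6215 genes, but none was lower by at least 1 and the median was -0.31. KIF23, a kinesin of cytokinesis, was at -0.98, CDK1 at -0.82, CENPA, the centromeric histone, at -0.74 and CDC20, an activator of the anaphase-promoting complex, at -0.61. AURKB was at -0.45, PLK1 at -0.40 and CCNA2 at -0.35, while CCNB2, among the lowest over all cells, was at -0.004. KIF11, MAD2L1 and MELK were above 0, at 0.03, 0.05 and 0.34. The mean log2 level of the 30 genes per cell ran from 4.88 to 6.90 (mean 5.94 ± 0.67) in the 13 longest and from 5.26 to 7.21 (6.29 ± 0.64) in the 18 least long cells, so the ranges overlapped for most cells. The 20 gene-rich middle long cells had a mean of 5.95, at the level of the longest.

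Most DNA replication genes that passed the mean were above 0 among gene-rich cells. Of these 27 of 29 listed genes, 18 were above 0 there, beside 3137 of all 6215 genes, with a median of 0.24. Over all cells 7 were above 0 and the median was -0.30, and among gene-poor cells 6 with a median of -0.83. By the linear fit on detected genes 14 were above 0, with a median of 0.02, so the sign was not kept outside the gene-rich cells. MCM6, a subunit of the replicative helicase, had a TPM of 49.6 at the lowest, 84.4 at the median and 156 at the highest in the 13 gene-rich longest cells and 10.5, 59.0 and 143 in the 18 least long cells. It differed by 0.70 with the longest cell the higher in 75.6% of pairs. CCNE1, the cyclin of the G1 to S transition, differed by 1.08, the member past the threshold, and CDC45, MCM2 and TYMS by 0.85, 0.52 and 0.41. PCNA, the sliding clamp, differed by -0.01. The mean of the list per cell was 5.47 ± 0.30 in the longest, 5.41 in the middle long and 5.28 ± 0.33 in the least long gene-rich cells, and the longest cell was the higher in 62.8% of pairs.

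**Figure D4:**
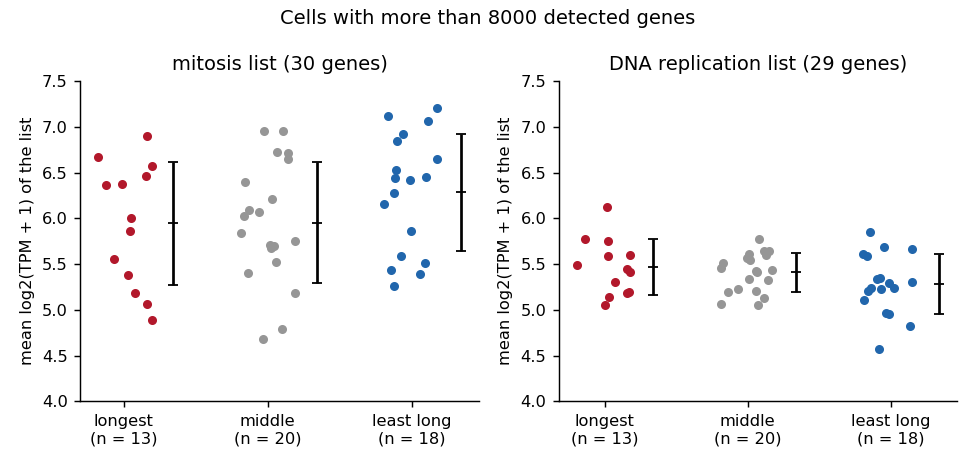
Mean log2(TPM + 1) of the mitosis list (left) and the DNA replication list (right) per cell (y axes) in gene-rich cells of the longest, middle and least long sets. Points are cells and bars the mean ± SD; the mitosis means are 5.94, 5.95 and 6.29, the replication means 5.47, 5.41 and 5.28, and the ranges overlap.

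The promoters of these lists differ in known elements, which are shown here because most of the mitosis genes were below 0 and 18 of the 27 replication genes above 0 among gene-rich cells. The cell cycle genes homology region (CHR) is a short element through which late cell cycle genes are repressed and then activated, and E2F sites control genes of the G1 to S transition. In RefSeq windows of GRCh38.p14, from 250 bases before to 50 bases after each gene start, the letters TTTGAA were looked for on both strands. They were found for 16 of 24 mitosis genes with a window (66.7%) and for 2 of 24 DNA replication genes (8.33%). Of the genes past the mean of 10 TPM with a window, 641 of 4737 held them (13.5%), and of genes in all 4961 of 27305 (18.2%). Of 6 of the mitosis genes described above, 1 window of 30 bases each follows, 5′ to 3′ on the strand of the gene, with TTTGAA in capitals.

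CDK1: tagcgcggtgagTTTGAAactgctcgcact
CCNB2: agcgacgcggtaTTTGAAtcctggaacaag
CENPA: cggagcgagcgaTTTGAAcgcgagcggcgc
CDC20: cgacggttggatTTTGAAggagccaatagg
KIF23: ctgattggcccgTTTGAAatgcgccaggcg
PLK1: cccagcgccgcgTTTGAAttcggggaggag

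In that order they lie at chr10:60778453-60778482, chr15:59105105-59105134, chr2:26786026-26786055, chr1:43358904-43358933, chr15:69414282-69414311 and chr16:23678848-23678877, all on the plus strand. The letters begin 29 bases before the start of CCNB2 and of PLK1, 18 before that of CENPA, 55 before that of KIF23 and 65 before that of CDC20. CDK1 has several starts, and the window shown lies 13 bases before 1 of them. The 16 mitosis genes with the letters had a median difference of -0.42 among gene-rich cells (14 below 0) and the 8 without them -0.25 (7 below 0), so genes with and without the letters lay on the same side.

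An E2F match was counted where TTTCCCGC, TTTCGCGC, TTTGCCGC or TTTGGCGC stood on either strand. Such a match was found for 14 of 24 DNA replication genes (58.3%) and for 3 of 24 mitosis genes (12.5%). Of the genes past the mean of 10 TPM with a window, 371 of 4737 held a match (7.83%), and of genes in all 1090 of 27305 (3.99%). The examples are given in the direction of the match, with its letters in capitals.

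MCM6: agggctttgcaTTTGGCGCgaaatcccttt
MCM3: agttcggaagtTTTCGCGCcggggtggagt
CDC6: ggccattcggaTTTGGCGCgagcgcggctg
PCNA: aacgcacgcctTTTCCCGCccctgacgctg

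They lie at chr2:135876577-135876606 and chr6:52284728-52284757 on the minus strand and at chr17:40287875-40287904 and chr20:5126663-5126692 on the plus strand, the last opposite to its gene. Among gene-rich cells the 13 replication genes with a match and past the mean had a median difference of 0.02, and the 10 without a match 0.33. The matches are a description of these windows and no measure of binding.

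Energy metabolism differed by less than 1 in nearly every listed gene. The complex I subunits had a median of -0.06 (38 genes), complex II of -0.29 (4), complex III of -0.19 (9), complex IV of -0.02 (11) and the ATP synthase of -0.12 (16). No subunit passed the threshold in all cells or in gene-rich cells, where 13.5% and 2.04% of all genes were lower by at least 1. The medians of the complexes lie above that of all genes (-0.39). Among gene-rich cells they were -0.09, -0.05, 0.04, -0.12 and -0.05, and 0 of the 11 complex IV subunits were above 0, beside 50.5% of all genes. The mean log2 level of complex IV there was 10.05 ± 0.15 in the longest and 10.18 ± 0.18 in the least long cells, with the longest cell the higher in 29.5% of pairs. Among gene-poor cells 5 of the 11 were above 0, and the mean level differed by -0.05 with 50% of pairs. By the linear fit on detected genes 3 of the 11 were above 0, so the direction was not kept outside the gene-rich cells.

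UQCRH, the hinge subunit of complex III, was the member with the most separated ends. Its TPM was 665 at the lowest, 2298 at the median and 3891 at the highest in the longest cells and 1394, 2954 and 4931 in the least long cells. The longest cell was the higher in 20.9% of pairs, place 3 from the lowest of 6215, with a difference of -0.45 (SDs of 0.54 and 0.36); 25 of 27 longest cells lay below the median of the least long cells. Among gene-rich cells the difference was -0.15 with 32.5% of pairs. SDHC of complex II differed by 0.66 over all cells and by 0.13 among gene-rich cells.

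Glycolysis genes had medians of -0.21 over all and -0.09 among gene-rich cells (19 of 22 past the mean). PFKP, a phosphofructokinase, and ALDOC, an aldolase, differed by -1.22 and -1.27, and among gene-rich cells by -0.63 and -0.27. PGAM1, a phosphoglycerate mutase, differed by 0.38 and among gene-rich cells by 0.28, with the longest cell the higher in 67.9% and 73.1% of pairs. LDHA, lactate dehydrogenase, differed by 0.03 over all and by -0.11 among gene-rich cells.

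**Figure D5:**
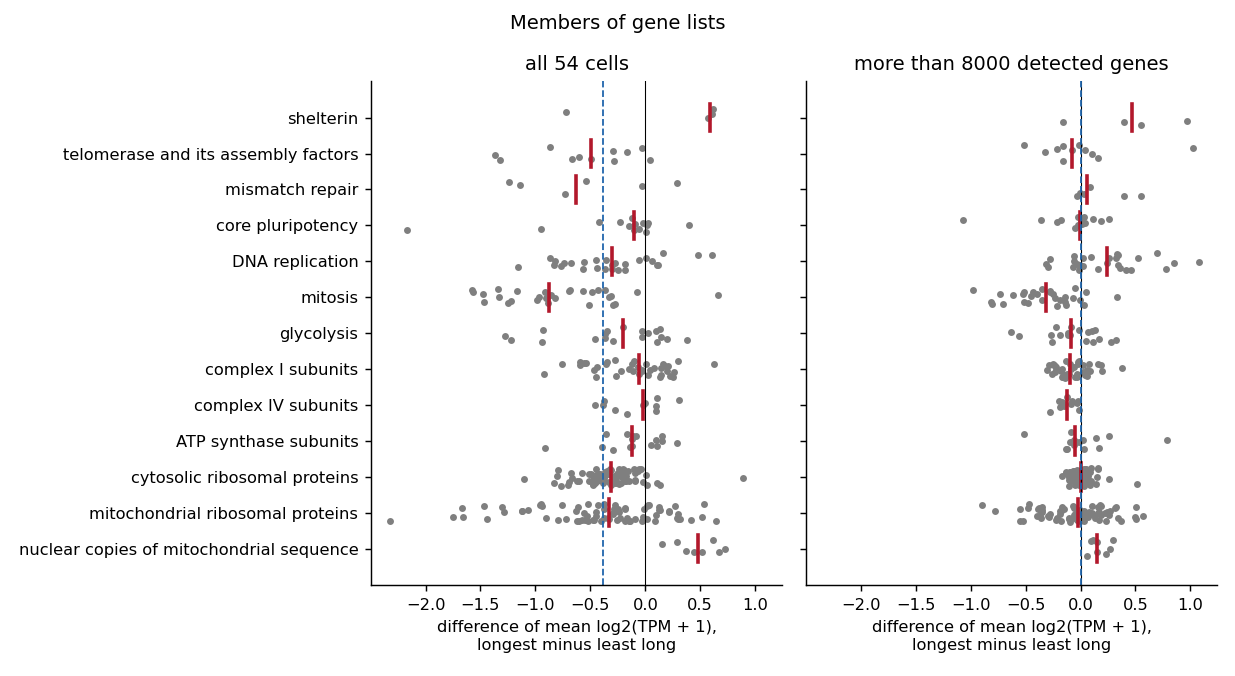
Difference of mean log2(TPM + 1), longest minus least long (x axis), of each member past the mean of 10 TPM in 13 gene lists (rows), over all 54 cells (left) and the gene-rich cells (right). Red bars are list medians and dashed blue lines the median of all 6215 genes (-0.39 and 0.004); the mitosis median lies left of the blue line in both panels (-0.87 and -0.31) and the shelterin median right of it (0.59 and 0.47).

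Ribosomal protein genes took less of the library in the longest cells. The summed TPM of the cytosolic ribosomal protein genes was 96985 at the lowest, 192193 at the median and 303478 at the highest in the longest cells (mean 204953 ± 67744) and 138777, 260696 and 296439 in the least long cells (237431 ± 56197). Among gene-rich cells the means were 260221 ± 35336 and 261496 ± 40558 (13 and 18 cells). Of 83 genes past the mean 1 was lower by at least 1 (RPL22L1, a paralogue, at -1.11, and at 0.52 among gene-rich cells), with medians of -0.31 over all cells and 0.00 among gene-rich cells. Of 77 mitochondrial ribosomal protein genes 11 were lower by at least 1 (14.3%, near the 13.5% of all genes) and 0 among gene-rich cells.

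Rows that resemble mitochondrial sequence had higher means in the longest cells, with wide overlap between the ends. MTRNR2L genes and the miRNA rows MIR4461 and MIR6723 share sequence with mitochondrial RNA, so their reads can come from it and cannot be assigned to the single rows. All 8 of 12 that passed the mean were above 0 over all, gene-rich and gene-poor cells, beside 22.4%, 50.5% and 31.5% of all genes. Their medians were 0.48, 0.15 and 1.08. Since the rows share reads, they are not 8 separate observations. MTRNR2L10 had a TPM of 75.8 at the lowest, 281 at the median and 967 at the highest in the longest cells and 72.8 to 465 with a median of 190 in the least long cells, a difference of 0.72 with 73.4% of pairs, and of 0.26 among gene-rich cells. Their sum per cell was 38335 ± 15897 against 32427 ± 13967. Among gene-rich cells the sums were 41207 ± 15526 and 37635 ± 12863. The longest cell had the higher sum in 60.6% of all pairs and in 57.7% of gene-rich pairs. The rank correlation of the sum with rising T/R order was weak, at 0.09 over the 81 long cells. It was 0.11 over the gene-rich and 0.24 over the gene-poor long cells. The part of mitochondrial RNA in the differences of other genes was not tested.

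Of the 10 genes with the lowest differences over all cells, 9 differed more among gene-poor than among gene-rich cells, GSTM2 being the exception. PRAC1, a small nuclear protein, was above TPM 1 in 18 of 27 longest and in 27 of 27 least long cells, with median TPMs of 28.4 and 141 and a difference of -2.70. All 13 and 18 gene-rich cells expressed it, with medians of 96.3 and 134 and a difference of -0.78, whereas 5 of 14 gene-poor longest cells did. TIMM9, a chaperone of mitochondrial import, differed by -2.54 over all and by 0.12 among gene-rich cells. LINC00998, GSTM2, PIR, NKAP, MRPL48, TRUB2, ACOT9 and ANXA3 completed the list, at -2.52 to -2.26. Among gene-rich cells NKAP was at -0.15, whereas GSTM2, a glutathione transferase, was at -2.33 and PIR, an iron-binding protein, at -1.38.

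GSTM2 repeated the pattern of DPPA5. It was above TPM 1 in 5 of 13 longest, 16 of 20 middle long and 14 of 18 least long gene-rich cells, and in 7 and 17 of 27 cells over all. Of the 10 lowest genes among gene-rich cells these were the first 2, followed by MIR4454 (-2.23), METTL1 (-2.14), SNORD44 (-1.90), RPP25L (-1.86), HDDC3 (-1.82), EXOC4 (-1.71), HIST1H2AC (-1.70) and MIR7705 (-1.66). METTL1, a tRNA methyltransferase, was detected in 7 of 13 and 17 of 18 gene-rich cells. SNORD44 was listed at 0 in all 27 longest cells and above TPM 1 in 6 least long cells. HDDC3 and EXOC4 had the other sign among gene-poor cells, at 2.22 and 1.68. Rows of miRNA genes report fragments of longer transcripts in a poly(A) library and not the mature miRNA, whose sequence for MIR4454 is given with its seed, bases 2 to 8, in capitals.

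hsa-miR-4454: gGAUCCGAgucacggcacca

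In RefSeq on GRCh38.p14 it is encoded on the minus strand at chr4:163093607-163093626.

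The 10 highest genes over all cells differed by 1.19 to 1.53. MIR1273A came first at 1.53, then SNORA40, ANKRD39, DNTTIP1, LINC01099, CHKB-AS1, the identical rows SNAR-B1 and SNAR-B2, DDX19B and RNF130. LINC01099, a long non-coding RNA, was detected in 22 against 14 cells and differed by 1.32, and among gene-rich cells by 1.45 with 76.5% of pairs. DDX19B, an RNA helicase of mRNA export, differed by 1.26 and by 1.48. DNTTIP1, a histone deacetylase complex protein, and RNF130, a ubiquitin ligase, differed by 1.35 and 1.19 over all cells but by 0.16 and 0.40 among gene-rich cells. CHKB-AS1 lies antisense to CHKB and NUTM2A-AS1 antisense to NUTM2A, and in a library that does not keep strand the reads of such partners cannot be told apart.

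Among gene-rich cells SNORA73B and SLC25A14 were the highest at 2.24 each. SLC25A14, a mitochondrial carrier, had a TPM of 16.3 at the lowest, 38.2 at the median and 99.25 at the highest in the 13 longest cells and 0, 12.0 and 58.6 in the 18 least long cells, and the longest cell was the higher in 85.5% of pairs. In gene-poor cells it had the other sign: it was above TPM 1 in 0 of 14 longest and 6 of 9 least long cells. HPS1, a protein of lysosome-related organelles, differed by 1.79 with the same 85.5% of pairs and had the highest rank correlation with T/R order among gene-rich cells, 0.55 over 51 cells. Among gene-poor cells the correlation of HPS1 was -0.07. SLC25A14 and HPS1 took their high places in this same comparison, so these places are not independent evidence. SNORD36A, AMN1, SLC35A1, LOC100507002, PIGW, NUTM2A-AS1 and CHKB-AS1 made up the rest, at 1.71 to 2.05.

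The genes that the study selected on these cells kept their sign in part. Of 8 genes with a positive relation to the T/R ratio, 7 passed the mean and 5 were above 0, with a median of 0.56, and among gene-rich cells 6 were above 0, with a median of 0.34. AIMP2, a scaffold of tRNA synthetases, differed by 0.72 over all and by 0.54 among gene-rich cells, and UBQLN1, a ubiquitin-like shuttle protein, by 0.56 and 0.28. COMMD4 and ACTR3B, the 2 below 0 over all cells, at -0.13 and -0.40, were above 0 among gene-rich cells, at 0.29 and 0.81. Of 8 genes with a negative relation 5 passed the mean, with medians of -0.11 and -0.02. Since these cells were part of the selection, neither list is independent evidence of its direction.

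Single cells differed more within the longest set. The median correlation of log2(TPM + 1) between 2 cells over all genes was 0.697 within the longest, 0.814 within the least long and 0.750 between both. Among gene-rich cells these were 0.842, 0.860 and 0.854.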

How the data were processed

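Single cells of the WA26 line were measured by scT&R-seq, and the deposited table holds 1 column per cell for 121 cells. The deposited TPM values were made by the authors: the submitters' notes name TopHat2, RSEM and hg19, while the study's methods name HTSeq and size factors, and which of these made the values is not given in the sources used here. Values have 2 decimals, and TPM keeps no read depth, so the number of cells limits the precision. The table held 25610 complete genes in alphabetical order up to ZFR; later genes are not analysed here, and the sums per cell were 979828 to 997050. Other groups than long entered only as levels.

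Groups follow the labels' cell numbers, which were checked against the order of T/R ratios in the supplement; no ratio is reported. With Python 3.11.15, numpy 2.4.6, pandas 2.3.3 and scipy 1.17.1, genes that averaged at least 10 TPM over the 54 cells were compared on log2(TPM + 1). A gene was detected above TPM 1, and cells with more than 8000 detected genes were called gene-rich, a border set after values had been seen. The difference functions were tested on simulated data, in which most planted genes passed the threshold of 1 but so did a larger number of genes with no planted difference; passing it is a description of size. Named genes are the 10 highest and 10 lowest differences over all and over gene-rich cells and members of the fixed lists. The members and lists, and the promoter motifs, were chosen with earlier results of these data known, and the motifs after values had been seen. Alternatives covered the choice of cells, pseudocount, filter, scaling, group medians and an adjustment for detected genes. No test was made, since each group counts as 1 sample.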

Additional observations from a re-analysis of the deposited data

How the results depend on the processing

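The number of genes past the threshold depended on most choices. Genes lower by at least 1 numbered 837 and genes higher by at least 1 numbered 30 as reported. With gene-rich cells alone they were 127 and 103, with gene-poor cells alone 1776 and 444, with 20 against 20 cells 1619 and 91, and with 40 against 40 cells 277 and 18. A pseudocount of 0.1 gave 1979 and 96, a pseudocount of 10 gave 37 and 0, and the adjustment for detected genes 219 and 99; group medians gave 60 higher. Where the pseudocount of 10 gave 0, 2004 genes were still above 0. The median difference of -0.39 became 0.0043 for gene-rich cells, -0.53 for 20 against 20, -0.26 for 40 against 40, -0.29 without cells under 5000 detected genes, -0.62 and -0.14 for pseudocounts of 0.1 and 10, -0.25 for a mean TPM of at least 1, -0.088 with no filter beyond TPM above 0, -0.20 for group medians and -0.080 with the adjustment. Genes above 0 made up 22.4% as reported, 50.5% for gene-rich cells, 42.6% with the adjustment, 31.5% for gene-poor cells, 32.2% for the pseudocount of 10, 31.4% for group medians and 37.2% with no filter. The difference in detected genes stayed below 0 in 10 of 10 alternatives, from -2410 for group medians to -17.2 for gene-rich cells. Replacing cell 27 by the tied cell 28, leaving out cells 1 and 2, and both other scalings moved neither count by over 1.5 times.

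Of 275 named genes 163 changed sign under at least 1 alternative, 96 of them for gene-rich and 40 for gene-poor cells. Of the 45 named genes that differed by at least 1 as reported, 6 changed sign, under 1 alternative each: EXO1 (0.55), PMS1 (0.084) and TIMM9 (0.12) for gene-rich cells, METTL1 (0.20) and MIR4454 (0.14) for gene-poor cells, and DUSP6 (0.039) with the adjustment. The cause was not tested. No paired analysis was possible because the cell numbers pair no cells and no result comes from a test. With no named cultures, no read depth per cell and gene-poor cells unevenly spread, telomere length and library quality cannot be told apart. The study reported alike cumulative read proportions in its telomere groups and no significant correlation of mapping ratio with telomere length. It also saw no obvious difference in telomere length between predicted cell cycle stages. Mapping ratios were not used here. Among gene-rich cells the mean number of detected genes and the mean ribosomal sum (260221 and 261496) were alike. Library quality as a whole was not compared. The gene-rich comparison rests on 13 and 18 cells, and the SD between cells was larger than most single-gene differences there.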

Other observations

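MYC, the growth-promoting transcription factor, differed by -1.47 over all and by -0.47 among gene-rich cells, and its partner MAX by -1.28 and 0.25, while MYCN differed by -0.52 and 0.78. NODAL and LEFTY1, a ligand of the pathway that GDF3 also uses and its antagonist, differed by -1.52 and -1.21 over all cells and by -0.71 and -0.62 among gene-rich cells; FOXH1, a DNA-binding partner of SMADs in this pathway, differed by 0.39 and 0.17. Of the FGF list 7 genes passed the mean of 10 TPM. Among gene-rich cells 0 were above 0, beside 50.5% of all genes, with a median of -0.36. SPRY1, SPRY2 and SPRY4, feedback inhibitors of FGF signalling, were at -0.41, -0.36 and -0.40 there. Over all cells 1 of the 7 was above 0, FGFR1 at 0.84. Among gene-poor cells 2 were above 0, with FGFR1 at 2.57, and by the linear fit on detected genes also 2.

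Among chromatin genes UHRF1, which carries DNA methylation through replication, was higher by 1.08 over all and by 0.82 among gene-rich cells, whereas DNMT1, the enzyme it guides, differed by -0.71 and 0.18. EED of Polycomb repressive complex 2 differed by -1.40 and 0.29. HIST1H4J, a replicative histone row, differed by 1.15 and 1.12, and HIST1H3H by -1.62 and -1.46; histone genes of 1 cluster share sequence and most of their RNA lacks a poly(A) tail. MALAT1, a nuclear RNA, differed by 0.62 over all and by -0.46 among gene-rich cells. The p53 list had 6 of 9 genes above 0 among gene-rich cells, beside 50.5% of all genes. Over all cells it had 0 of 9, beside 22.4% of all genes. Among gene-poor cells 2 of the 9 were above 0, and 1 by the linear fit on detected genes.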
